A study of Rattus norvegicus with 484 samples.

Results

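The proteasome genes and the heat shock and DnaJ genes of the rat array are described here as the genes of protein breakdown and protein folding. A gene was a member when its platform symbol began with Psma, Psmb, Psmc, Psmd, Psme, Psmf or Psmg (42 proteasome genes) or with Hsp or Dnaj (51 chaperone genes), which gave 93 of the 10210 genes that the platform names, read by 146 probes. The data were 484 arrays, each of which set RNA of 1 rat, labelled with Cy5, against Cy3-labelled pooled RNA from that tissue of vehicle rats on the labelled day, and the deposited value was a log ratio. Liver, quad and soleus were collected on days 2 to 6 from rats given fenofibrate at 400 mkd, bezafibrate at 250 mkd, Wy-14,643 at 100 mkd, rosiglitazone at 100 mkd, retinoic acid at 25 mkd or vehicle at 0 mkd, with mkd written as in the labels. Liver had 14 fenofibrate arrays, 15 arrays for each of the other compounds and 73 arrays of single vehicle rats. Quad had 18 fenofibrate, 20 bezafibrate, 16 Wy-14,643, 16 rosiglitazone, 18 retinoic acid and 63 vehicle arrays. Soleus had 19, 20, 18, 20 and 20 arrays of the compounds in the same order and 35 vehicle arrays. The EDL, another hindlimb muscle, had 54 arrays at other doses, none of them of a single vehicle rat: fenofibrate at 50 mkd (9 arrays), bezafibrate at 25 mkd (9), Wy-14,643 at 10 mkd (12), rosiglitazone at 10 mkd (9) and at 100 mkd (4, day 4), and retinoic acid at 2.5 mkd (11). Fenofibrate, bezafibrate and Wy-14,643 are ligands of PPARalpha, bezafibrate also of the other PPAR forms, rosiglitazone is a PPARgamma ligand used against diabetes, and retinoic acid activates retinoic acid receptors. The labels give no strain, sex or age, and the doses differ between compounds, so values of different compounds are set side by side and not compared. Within a tissue the 5 compounds share the same vehicle arrays.

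The proteasome is the barrel-shaped protease that degrades ubiquitin-tagged proteins. Its 20S core has outer rings of alpha subunits (Psma genes) around inner rings of beta subunits (Psmb genes), of which some carry the cutting sites. The 19S cap, built from ATPases (Psmc genes) and other subunits (most Psmd genes), recognises, unfolds and feeds in substrates, and Psmg proteins help to assemble the alpha ring. After interferon signals, Psmb8 and Psmb9 replace constitutive cutting subunits to form the immunoproteasome, and Psme1 and Psme2 form an alternative cap, both of which favour peptides for antigen presentation. Chaperones hold or refold unfolded proteins: HSP70 and HSP90 proteins are ATP-driven, DnaJ proteins deliver clients to HSP70, small heat shock proteins hold them, and the Hspd1 and Hspe1 pair folds proteins inside mitochondria. In liver, where PPARalpha agonists raise the genes of fatty acid oxidation and enlarge peroxisomes in rodents, protein turnover and folding run at a high rate.

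The stretch just upstream of the start is shown first for genes on which the results below turn, since members of each family are known to share control elements there. RefSeq sequences of build GRCr8 were matched to 80 of the 93 members, and the 250 bases before each start were searched on both strands. The heat shock element, bound by HSF1, was searched as GAA, TTC and GAA with 2 bases of any kind between neighbours, and it occurred in 4 of 41 chaperone promoters (9.76%: Hspa8, Hspd1, Hspe1 and Hsph1), in 0 of 39 proteasome promoters and in 0.663% of all 33469 promoters. The endoplasmic reticulum stress element, bound by ATF6 with NF-Y, was searched as CCAAT and CCACG with 9 bases between them, and it occurred in 3 chaperone promoters (7.32%: Dnajc3, Hsp90b1 and Hspa5), in 0 proteasome promoters and in 0.0657% of all promoters. The antioxidant response core, bound by Nrf1 and Nrf2, was searched as TGAC and GC with 3 bases between them and occurred in 6 of 39 proteasome promoters (15.4%: Psma3, Psmb2, Psmb5, Psmb6, Psmd1 and Psmd9), in 2 of 41 chaperone promoters (4.88%) and in 10.1% of all promoters. An interferon response core, GAAA and GAA with 2 bases between them, occurred in 6 of 39 proteasome promoters (15.4%), in 5 of 41 chaperone promoters (12.2%) and in 8.12% of all. Capitals mark these matches, which are descriptions of letters and not sites shown to be bound. Hspe1 has 2 overlapping heat shock elements, and its start lies 290 bases from that of Hspd1, which is read the other way. The matches of Hspd1 are these same bases, so the 4 promoters above count 1 stretch under 2 genes.
Hspe1 (chr9:64084077-64084326, plus strand): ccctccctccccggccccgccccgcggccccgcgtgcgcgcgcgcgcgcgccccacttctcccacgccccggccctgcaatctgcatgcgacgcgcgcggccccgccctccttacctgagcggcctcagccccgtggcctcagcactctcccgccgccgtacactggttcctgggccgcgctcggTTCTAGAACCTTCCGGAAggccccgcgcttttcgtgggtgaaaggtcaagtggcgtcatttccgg
Hspa5 and Hsp90b1, the main chaperones of the endoplasmic reticulum, hold the stress element that the rule of letters finds once in Hspa5 and at 2 places in Hsp90b1.
Hspa5 (chr3:38452766-38453015, plus strand): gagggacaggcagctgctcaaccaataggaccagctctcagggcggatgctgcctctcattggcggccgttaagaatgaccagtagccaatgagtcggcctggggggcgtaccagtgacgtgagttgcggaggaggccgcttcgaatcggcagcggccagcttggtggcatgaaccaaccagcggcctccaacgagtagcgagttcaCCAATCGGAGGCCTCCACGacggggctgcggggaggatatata
Hsp90b1 (chr7:23012294-23012543, minus strand): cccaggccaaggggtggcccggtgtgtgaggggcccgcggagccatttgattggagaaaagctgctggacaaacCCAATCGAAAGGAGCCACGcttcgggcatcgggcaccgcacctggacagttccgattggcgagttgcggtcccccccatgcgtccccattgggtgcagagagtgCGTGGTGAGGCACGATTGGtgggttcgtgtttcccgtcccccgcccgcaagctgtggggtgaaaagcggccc
Psma3, an alpha ring gene, holds an antioxidant response core close to its start, read on the opposite strand.
Psma3 (chr6:95219499-95219748, plus strand): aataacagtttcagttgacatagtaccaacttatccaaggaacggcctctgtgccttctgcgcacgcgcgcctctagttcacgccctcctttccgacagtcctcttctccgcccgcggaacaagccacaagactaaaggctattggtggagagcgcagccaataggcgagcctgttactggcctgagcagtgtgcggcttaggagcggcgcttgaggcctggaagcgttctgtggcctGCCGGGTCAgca
Psme2 holds an interferon response core, while the 250 bases of Psmb9, whose start lies 457 bases from that of the peptide transporter gene Tap1, held none of the 4 sets of letters.
Psme2 (chr15:33052752-33053001, minus strand): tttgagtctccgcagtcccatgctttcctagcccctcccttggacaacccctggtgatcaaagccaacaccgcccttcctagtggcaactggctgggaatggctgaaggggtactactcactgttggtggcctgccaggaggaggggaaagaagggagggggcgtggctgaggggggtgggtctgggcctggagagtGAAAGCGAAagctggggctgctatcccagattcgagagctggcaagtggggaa
Psmb9 (chr20:4668750-4668999, plus strand): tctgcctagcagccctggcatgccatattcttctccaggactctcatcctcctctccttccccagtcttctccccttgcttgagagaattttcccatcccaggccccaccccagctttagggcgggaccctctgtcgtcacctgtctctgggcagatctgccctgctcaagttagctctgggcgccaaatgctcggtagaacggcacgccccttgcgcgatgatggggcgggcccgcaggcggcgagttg

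Differences are given as log2 of compound over same-day single vehicle rats, averaged over the days with equal weight, so 1.00 is a doubling, and a value per array is the log2 ratio of that rat minus the mean of the same-day vehicle arrays of its tissue. The test was limma's moderated test with Benjamini-Hochberg adjustment over all features of the table, and "rose" or "fell" is used for an adjusted p under 0.05. As a check of treatment and of the direction of the ratios, Acot1, a fatty acyl thioesterase gene and PPARalpha target, was higher in liver by 2.92 with fenofibrate, 3.20 with bezafibrate and 3.20 with Wy-14,643. Ratios against a pool of the same tissue carry no absolute level, so the labelled tissues were checked by comparing marker genes between arrays of a tissue. In the liver array of rat 1376 (rosiglitazone, day 4) the median over 14 hepatocyte markers was -4.07, against -0.20 to 0.17 over 73 vehicle livers, and those of slow muscle fibres, fibroblasts and endothelium were 2.40, 2.05 and 1.5. Of the 484 arrays, 8 stood apart: 6 by a spread of log ratios over 3 times the median of their tissue (from 3.09 to 12.3 times; 1 liver rosiglitazone, 1 soleus vehicle at 3.19 and another at 12.3, and 1 quad array each of vehicle, fenofibrate and bezafibrate), and 2 by liver marker genes, a soleus vehicle array with a gap of 4.91 and a quad retinoic acid array with a gap of 2.39 log2 units. Without these 8 arrays 12 of the 197 calls of members against vehicle did not pass, 8 of them in liver. Only some of these are given both ways below, and the counts of the main fit include all 12. Members without enough values were not tested: Psmb5 and Psmd4 in quad and soleus, Hspa8 and Hspb1 in soleus, and Hspd1 in liver, where 48.3% of arrays had a value.

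In liver, Wy-14,643 and fenofibrate raised most genes of the core and cap of the constitutive proteasome by small amounts. With Wy-14,643, 29 of 42 proteasome genes rose and 3 fell, beside 19.1% of all features that rose and 21.2% that fell, and the median over the 42 genes was 0.189 against -0.0080 over all features. With fenofibrate, 27 rose and 3 fell, beside 17.7% and 19.3% of all features, with a median of 0.155 against 0.0031. The alpha ring moved as a whole: 7 of 7 genes rose with each compound, with medians of 0.31 and 0.19. Of the 7 constitutive beta genes, 5 rose with Wy-14,643 and 4 with fenofibrate; of the 6 ATPases, 5 and 4 rose; and of the 13 other 19S genes, 9 rose with each. The 13 include Psmd5, Psmd9 and Psmd10, which help to assemble the cap and passed with neither compound. No gene of these 4 groups fell with either compound.

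Psmg2, the assembly chaperone that pairs with Psmg1 to build the alpha ring, had the largest rise of the set with both compounds. Its values per array ran from 0.10 to 0.63 with a median of 0.50 over the 15 Wy-14,643 livers and from -0.0014 to 0.68 with a median of 0.36 over the 14 fenofibrate livers, against -0.64 to 0.43 over the 73 vehicle livers. All 15 Wy-14,643 arrays lay above the vehicle mean, although the ranges overlap, and the difference was 0.49 (SE 0.043, adjusted p = 1.13e-18), a 1.40-fold level. With fenofibrate it was 0.36 (SE 0.045, adjusted p = 4.14e-11). Its partner Psmg1 gave 0.01 (95% interval -0.08 to 0.09, adjusted p = 0.936) with Wy-14,643 and 0.04 (95% interval -0.05 to 0.12, adjusted p = 0.533) with fenofibrate. Psma6, an alpha ring gene, ran from -0.01 to 0.71 with a median of 0.44 with Wy-14,643 and from -0.11 to 0.68 with a median of 0.31 with fenofibrate, against -0.39 to 0.31 in vehicle livers. 14 of 15 Wy-14,643 arrays were above 0, and the difference was 0.41 (SE 0.056, adjusted p = 6.18e-10); with fenofibrate it was 0.28 (SE 0.058, adjusted p = 3.16e-05). Psmc2, a 19S ATPase, ran from 0.22 to 0.55 with a median of 0.34 with Wy-14,643 against -0.37 to 0.33 in vehicle, so 8 of 15 treated livers exceeded every vehicle liver, with a difference of 0.35 (SE 0.055, adjusted p = 4.88e-08).

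Other large rises with Wy-14,643 were the alpha ring genes Psma4 at 0.37 (adjusted p = 2.81e-06) and Psma7 at 0.32 (adjusted p = 2.03e-05). With fenofibrate the cap genes Psmd8 at 0.28 (adjusted p = 0.000382) and Psmd2, a scaffold of the cap base, at 0.26 (adjusted p = 0.00225) and the beta gene Psmb3 at 0.23 (adjusted p = 0.000451) followed. The constitutive cutting subunits, the genes Psmb5, Psmb6 and Psmb7, gave 0.19, 0.14 and 0.28 with Wy-14,643 and 0.15, 0.01 and 0.20 with fenofibrate, and Psmb6 passed the test with neither. The ubiquitin receptor Psmd4 rose by 0.19 and 0.19, the ATPase Psmc1 by 0.17 and 0.08, and the inhibitor gene Psmf1 by 0.16 and 0.17. The 33 genes of the 2 core rings without the inducible subunits and of the cap were also summarised per array by their median. The assembly genes Psmd5, Psmd9 and Psmd10 are counted with the cap there. That median ran from 0.06 to 0.47 over the 15 Wy-14,643 livers and was above 0 in 15 of 15, and it ran from -0.05 to 0.41 over the fenofibrate livers and was above 0 in 11 of 14, against -0.32 to 0.25 over vehicle livers. By day, the median difference of the 42 genes was 0.17, 0.27, 0.12, 0.16 and 0.22 from day 2 to day 6 with Wy-14,643 and 0.09, 0.22, 0.12, 0.08 and 0.21 with fenofibrate, so it was above 0 on each of the 5 days. When arrays were scaled to one spread, 14 of 42 genes were called with fenofibrate in place of 30. All features called were then 5371 of 18400 in place of 6814, so the share of members was near that of all features. Leaving out day 3 or day 6 left 17 and 16 genes, beside 5824 of 18409 and 5351 of 18396 features.

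**Figure D1:**
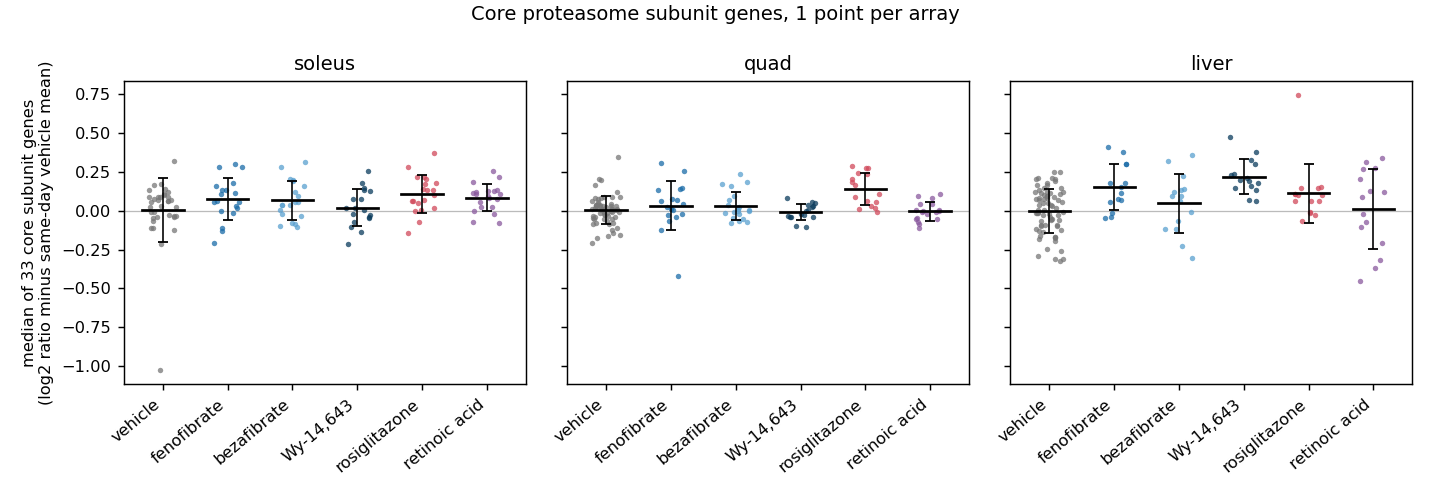
Median log2 ratio of the 33 core and cap genes of the proteasome, minus the same-day vehicle mean, with 1 point per array, for each compound in each of 3 tissues; lines are means and whiskers 1 SD. Counted with the cap are Psmd5, Psmd9 and Psmd10, which help to assemble it. The 15 liver Wy-14,643 points lie between 0.06 and 0.47, all above 0, and the highest liver rosiglitazone point is at 0.74.

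Of the interferon-inducible branch, Psmb8 and Psme1 fell with both compounds, while Psmb9 and Psme2 did not pass the test. Psmb8 ran from -0.80 to 0.14 with a median of -0.49 with Wy-14,643 and from -0.67 to 0.32 with a median of -0.27 with fenofibrate, against -0.69 to 0.62 in vehicle livers. Most treated livers were below 0 and within the vehicle range, and the differences were -0.43 (SE 0.077, adjusted p = 1.66e-06) and -0.23 (SE 0.080, adjusted p = 0.0176). Its 2 probes agreed in sign, at -0.09 and -0.37 with fenofibrate. Psmb9 gave -0.07 (95% interval -0.28 to 0.14, adjusted p = 0.648) and 0.04 (95% interval -0.18 to 0.26, adjusted p = 0.801). Psme1 fell with Wy-14,643 to -0.14 (SE 0.043, adjusted p = 0.00537), with fenofibrate to -0.20 (SE 0.045, adjusted p = 0.000105) and with bezafibrate to -0.16 (SE 0.043, adjusted p = 0.00225). Its partner Psme2 gave 0.12 (95% interval -0.0028 to 0.25, adjusted p = 0.116), 0.04 (95% interval -0.10 to 0.17, adjusted p = 0.725) and -0.10 (95% interval -0.23 to 0.02, adjusted p = 0.272). Psme3, which forms the nuclear cap that interferon does not induce, rose with Wy-14,643, fenofibrate and bezafibrate, by 0.19, 0.13 and 0.18. Psme3ip1, a gene of a Psme3-interacting protein that the symbol rule takes in, fell by 0.17 and 0.15 with Wy-14,643 and fenofibrate.

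Markers of leukocytes and macrophages, cells rich in the immunoproteasome, moved in the same livers. Of 16 such genes tested, 14 fell with Wy-14,643 (median -0.36) and 15 with fenofibrate (median -0.33), 4 with bezafibrate, 3 with rosiglitazone and 1 of 15 with retinoic acid, and 0 rose with any of the 5. Their summed level per array, as a median over the genes, ran from -0.62 to 0.0032 over Wy-14,643 livers and from -0.60 to 0.22 over fenofibrate livers, against -0.31 to 0.41 over vehicle livers. Endothelial markers fell too, 5 of 7 with Wy-14,643 and 6 of 7 with fenofibrate. Of 8 fibroblast markers 4 fell with fenofibrate and 1 with Wy-14,643, and of 3 erythroid markers 2 fell and 1 rose with each. Of 9 hepatocyte markers tested 3 fell with each of fenofibrate, Wy-14,643 and bezafibrate, and the median over 14 of them was below 0 in all 14 fenofibrate, 15 Wy-14,643 and 15 bezafibrate livers. Fewer cells of a type and less RNA per cell cannot be told apart in such tissue, no marker has an absolute level here (so none can be said to be at 0), and the part of these markers in the lower Psmb8 and Psme1 was not tested.

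Retinoic acid raised the inducible branch in liver, while the median over all 42 proteasome genes was 0.0090. There 4 proteasome genes rose and 1 fell, beside 14.2% of all features that rose and 15.0% that fell, and the 3 largest rises were those of Psmb9, Psmb8 and Psme2. Psmb9 ran from -0.03 to 1.33 with a median of 0.68 over 15 livers against -0.81 to 1.31 over vehicle livers. 14 of 15 treated livers were above 0, the highest at the edge of the vehicle range, and the difference was 0.75 (SE 0.11, adjusted p = 3.2e-09), a 1.69-fold level. By day it was 0.41, 1.24, 0.92, 0.64 and 0.55 from day 2 to day 6, with the 3 arrays of day 3 at 1.17, 1.22 and 1.33. Psmb8 ran from -0.18 to 0.96 with a median of 0.48, and its difference was 0.47 (SE 0.077, adjusted p = 3.5e-07). Psme2 ran from -0.22 to 0.63 with a median of 0.35, with 14 of 15 arrays above 0 and a difference of 0.29 (SE 0.064, adjusted p = 0.00015), while Psme1 gave 0.08 (95% interval -0.0009 to 0.17, adjusted p = 0.136). The alpha gene Psma5 rose by 0.17, and Psmd5, a chaperone of cap assembly, fell by 0.19. Of 14 antigen processing and interferon genes tested in these livers, 8 rose and 1 fell, among them the regulator Irf1 by 0.54, the peptide transporter genes Tap2 by 0.40 and Tap1 by 0.16 and the loading factor Tapbp by 0.23. With Wy-14,643, 3 of 14 fell (Irf8 -0.29, Irf1 -0.29 and Gbp2 -0.50), and with fenofibrate 3 fell and 1 rose, shares near the 21.2% and 19.3% of all features that fell. The leukocyte markers ran from -0.56 to 0.15 per array with a median of 0.02 over the retinoic acid livers.

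**Figure D2:**
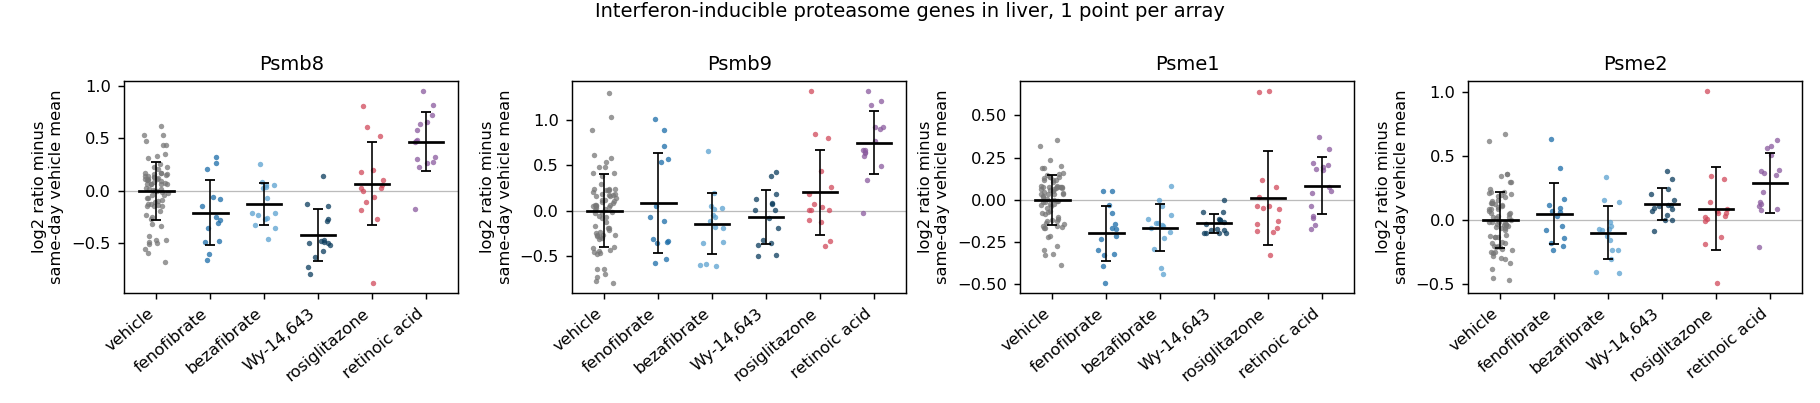
Log2 ratio minus the same-day vehicle mean of Psmb8, Psmb9, Psme1 and Psme2 in liver, with 1 point per array and 1 column per compound; lines are means and whiskers 1 SD. Psmb8 and Psmb9 lie high with retinoic acid, and Psmb8 lies low with Wy-14,643, where its median is -0.49.

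In liver 7 proteasome genes were called with bezafibrate and 10 with rosiglitazone. With bezafibrate 5 of 42 rose and 2 fell, a share of rises near the background, since 11.4% of all features rose and 9.89% fell, and the median over 42 genes was 0.011: the alpha gene Psma3 (0.21, adjusted p = 0.0147), the cap genes Psmd8 (0.18) and Psmd12 (0.17), Psme3 and Psmg2 (0.16) rose, and Psme1 and Psmg1 (-0.16) fell. Psma3 ran from -0.24 to 0.48 with a median of 0.25 against -0.89 to 0.60 in vehicle livers, with 12 of 15 arrays above 0. With rosiglitazone 10 rose and 0 fell, beside 10.3% and 12.4%, with a median of 0.092. Psma7 ran from 0.04 to 1.29 with a median of 0.23 against -0.48 to 0.49, with 15 of 15 arrays above 0, and rose by 0.28 (SE 0.066, adjusted p = 0.0012). Psmd12, a cap subunit, ran from 0.04 to 0.83 with a median of 0.18 against -0.44 to 0.38 and rose by 0.27 (SE 0.057, adjusted p = 0.000306). The rosiglitazone rises rest in part on the array of rat 1380 on day 5, whose median over the 33 core and cap genes was 0.74, while the other 14 arrays lay between -0.07 and 0.15. Without it 6 proteasome genes rose in place of 10, beside 3178 of 18375 features called in place of 4162, and the median was 0.045. Psma7 was then 0.21 (adjusted p = 0.019) and Psmd12 0.22 (adjusted p = 0.0041), while Psma5 went from 0.22 to 0.16 (adjusted p = 0.054). With array quality weights 0 of the 10 passed, beside 387 of 18375 features called, so calls were fewer among all features too.

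Genes around the proteasome were read from lists of partners and regulators. Of 17 ubiquitin and partner genes tested in liver, 8 rose and 0 fell with Wy-14,643, 3 and 0 with fenofibrate, and 1 and 0 with bezafibrate and with rosiglitazone. Of all features, 19.1%, 17.7%, 11.4% and 10.3% rose with these compounds in that order. The fenofibrate share was near that of all features, and the bezafibrate and rosiglitazone shares were below it. Counts of other lists in liver, here and below, are read against the liver percentages in the same way. Among the 8 that rose with Wy-14,643 were the ubiquitin receptor Adrm1 (0.21), the deubiquitinase Usp14 (0.28), the assembly factor Pomp (0.22) and the ubiquitin-conjugating enzyme Ube2n (0.20). Nfe2l1 encodes Nrf1, the factor that raises proteasome genes when the proteasome is short, and Ddi2 encodes the protease that activates it. Nfe2l1 rose by 0.26 with fenofibrate and 0.23 with Wy-14,643 and fell by 0.37 with retinoic acid, while Ddi2 fell with fenofibrate, Wy-14,643, rosiglitazone and retinoic acid, to -0.32, -0.44, -0.35 and -0.45. Of 11 antioxidant response genes, which Nrf2 controls, 4 rose and 0 fell with fenofibrate and 1 rose and 2 fell with Wy-14,643.

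**Figure D3:**
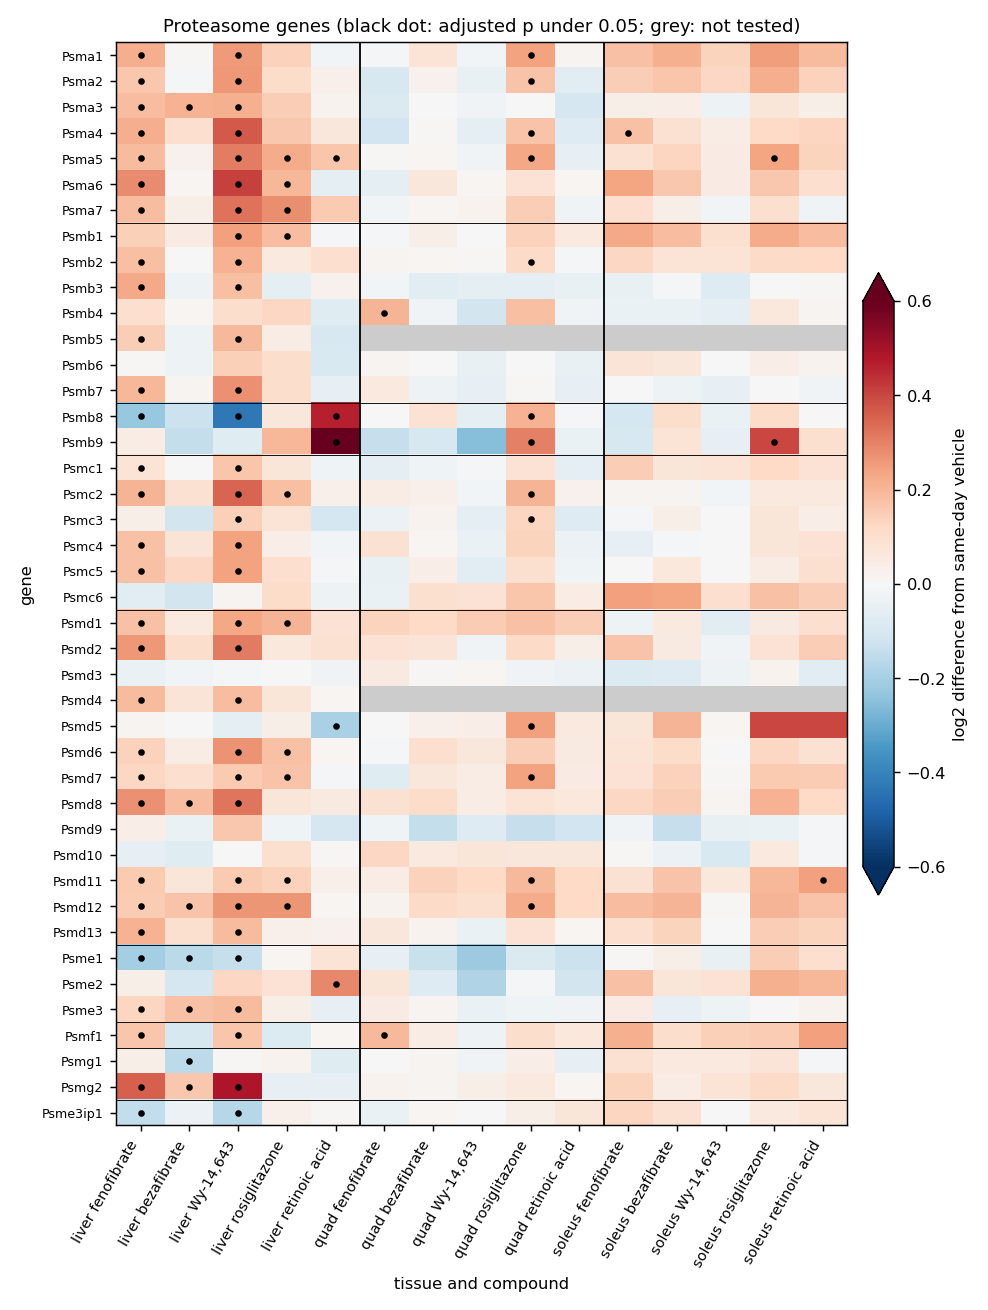
Log2 difference from same-day vehicle of the 42 proteasome genes (one line each, grouped by place in the complex) in the 15 combinations of tissue and compound. Black dots mark adjusted p under 0.05 and grey marks genes not tested; the 27 rises with fenofibrate and 29 with Wy-14,643 in liver stand beside 13 with rosiglitazone in quad.

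In muscle, rosiglitazone in quad was the one comparison with more than 2 proteasome calls. There 13 of 40 genes tested rose and 0 fell, beside 6.86% of all features that changed in either direction, and the median was 0.113 against -0.0055. Psmc2 ran from 0.01 to 0.44 with a median of 0.24 over 16 arrays against -0.36 to 0.35 over 63 vehicle arrays, so all 16 were above 0, and it rose by 0.20 (SE 0.043, adjusted p = 0.000386). Psma5 rose by 0.23 (SE 0.051, adjusted p = 0.000821), Psmd7 by 0.24, Psma1 by 0.24 and Psmd5 by 0.24, the last from values per array of -0.31 to 0.65. The inducible genes Psmb9 and Psmb8 rose by 0.30 and 0.21. The median over the 33 core and cap genes was above 0 in 15 of 16 arrays and ran from -0.01 to 0.28, against -0.21 to 0.34 in vehicle quads. Without the 3 quad arrays in doubt by spread and the 1 by markers, 20 genes passed, beside 2280 of 18420 features in place of 1263 of 18421. Leaving out day 3, 4 or 5 left 4, 5 and 3 genes, beside 592, 563 and 582 features, so the member counts rose and fell with those of all features.

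Psmb9 also rose with rosiglitazone in soleus, where 2 of 40 proteasome genes rose (Psmb9 and Psma5) and 0 fell, beside 2.63% of all features. Its values ran from -0.52 to 1.44 with a median of 0.34 over 20 soleus arrays, and its difference was 0.40 (SE 0.10, adjusted p = 0.0078). By day it was 0.62, -0.09, 0.14, 0.80 and 0.55 in soleus and -0.02, 0.10, 0.04, 0.79 and 0.60 in quad, so days 5 and 6 were high in both muscles. In liver, where the mean difference of 0.20 (95% interval -0.01 to 0.41, adjusted p = 0.159) did not pass, the 3 arrays of day 5 stood at 0.44, 0.81 and 1.32. The rat number 1380 occurs in all 3 tissues, and the mean of Psmb8 and Psmb9 there was 1.07 in liver, 0.85 in quad and 0.79 in soleus. Of 15 antigen processing and interferon genes tested, 6 rose in quad and 7 in soleus with rosiglitazone and 0 fell in either, with Irf7 at 0.61 and 0.66 and Gbp2 at 0.39 and 0.58. The median over 16 leukocyte markers was -0.05 in quad and 0.04 in soleus with rosiglitazone. Of 8 endothelial markers 2 rose and 3 fell in quad, and 2 rose and 1 fell in soleus. Of the adipocyte markers 1 of 7 rose in quad (median 0.22) and 1 of 6 in soleus (median 0.12), and their median per array reached 1.28 in quad and 1.27 in soleus, against 0.63 and 0.58 at most over vehicle arrays. The part of these markers in the higher Psmb9 was not tested.

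The other muscle comparisons held few or no proteasome calls. Fenofibrate raised Psmf1 (0.20, adjusted p = 0.00109) and the beta gene Psmb4 (0.20, adjusted p = 0.0207) in quad, 2 of 40, beside 5.69% of all features, the latter at 0.21 (adjusted p = 0.0526) without the arrays in doubt, and Psma4 (0.17, adjusted p = 0.0461) in soleus, 1 of 40, beside 3.33%. Retinoic acid raised Psmd11 (0.25, adjusted p = 0.0194) in soleus, 1 of 40, beside 2.85%. By limma 0 proteasome genes passed with bezafibrate in quad (6 at an unadjusted p under 0.05; 1.63% of all features called) or soleus (8; 0.904%), with Wy-14,643 in quad (5; 0.0163%) or soleus (0; 0.191%), or with retinoic acid in quad (3; 2.42%). Psmg2 with Wy-14,643 was 0.03 (95% interval -0.03 to 0.10, adjusted p = 0.874) in quad and 0.08 (95% interval -0.07 to 0.24, adjusted p = 0.816) in soleus, so both intervals end below its rise in liver.

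Among chaperones in liver, Hspe1 and Hspa9, which work in mitochondria, rose with Wy-14,643 and fenofibrate. With Wy-14,643 17 of 49 chaperone genes tested rose and 4 fell (median 0.059), with fenofibrate 12 of 50 rose and 7 fell (0.0070), with bezafibrate 9 rose and 2 fell (0.014), with rosiglitazone 13 of 49 rose and 4 fell (0.064), and with retinoic acid 6 of 50 rose and 7 fell (-0.024), each read against the liver percentages above. Hspe1, the co-chaperonin of the mitochondrial folding chamber, ran from 0.37 to 0.79 with a median of 0.58 over the Wy-14,643 livers against -0.55 to 0.33 over vehicle livers. The lowest treated liver exceeded the highest vehicle liver, so the 2 groups did not overlap, and the difference was 0.58 (SE 0.062, adjusted p = 3.14e-14), a 1.49-fold level. With fenofibrate it ran from -0.28 to 0.69 with a median of 0.43 and rose by 0.34 (SE 0.064, adjusted p = 7.44e-06), and with bezafibrate it gave 0.02 (95% interval -0.10 to 0.14, adjusted p = 0.86). Its partner Hspd1 was not tested in liver; the 8 fenofibrate and 5 Wy-14,643 arrays with a value lay at 0.06 to 0.43 and 0.27 to 0.55. Hspa9, the mitochondrial HSP70 that pulls in and folds imported proteins, ran from -0.04 to 0.61 with a median of 0.40 with Wy-14,643 and from -0.14 to 0.53 with a median of 0.32 with fenofibrate, against -0.36 to 0.34. 10 of 15 Wy-14,643 livers lay above every vehicle liver, and it rose by 0.37 (SE 0.041, adjusted p = 9.17e-14) and 0.27 (SE 0.043, adjusted p = 1.35e-07), and by 0.12 with bezafibrate and 0.16 with rosiglitazone.

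Among DnaJ genes, Dnajc15, Dnajc11, Dnajc19 and Dnajc30 rose with both fenofibrate and Wy-14,643, as did Dnajc8 and, given below, Dnajb3 and Dnajc21. Dnajc28 fell with Wy-14,643, by 0.27, and gave -0.16 (adjusted p = 0.155) with fenofibrate, and Dnaja3 and Dnajc4 passed with neither. Dnajc15, a DnaJ protein of the inner membrane, ran from 0.09 to 0.59 with a median of 0.43 with Wy-14,643 against -0.30 to 0.29, with 12 of 15 arrays above every vehicle liver. It rose by 0.39 (SE 0.059, adjusted p = 1.4e-08), and by 0.27 with fenofibrate. Dnajc11, a protein of the complex that shapes the cristae, rose by 0.27 with fenofibrate and 0.24 with Wy-14,643. Dnajc19, of the import motor of the inner membrane, rose by 0.20 and 0.18, and Dnajc30 by 0.19 and 0.22. Of 10 mitochondrial import, folding and protease genes outside the DnaJ and Hsp names, 9 rose with fenofibrate, 8 with Wy-14,643 and 3 with bezafibrate, and 0 fell with any of these. Grpel1, the nucleotide exchange factor of Hspa9, rose by 0.47 and 0.42 with fenofibrate and Wy-14,643, and the matrix protease genes Clpp and Clpx rose by 0.33 and 0.54 and by 0.54 and 0.77. Of 9 genes of the cytosolic chaperonin TRiC and of prefoldin, which fold actin and tubulin, 7 rose with Wy-14,643 (Cct5 by 0.38, Cct2 by 0.33, Tcp1 by 0.28) and 3 with fenofibrate, and 0 fell.

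**Figure D4:**
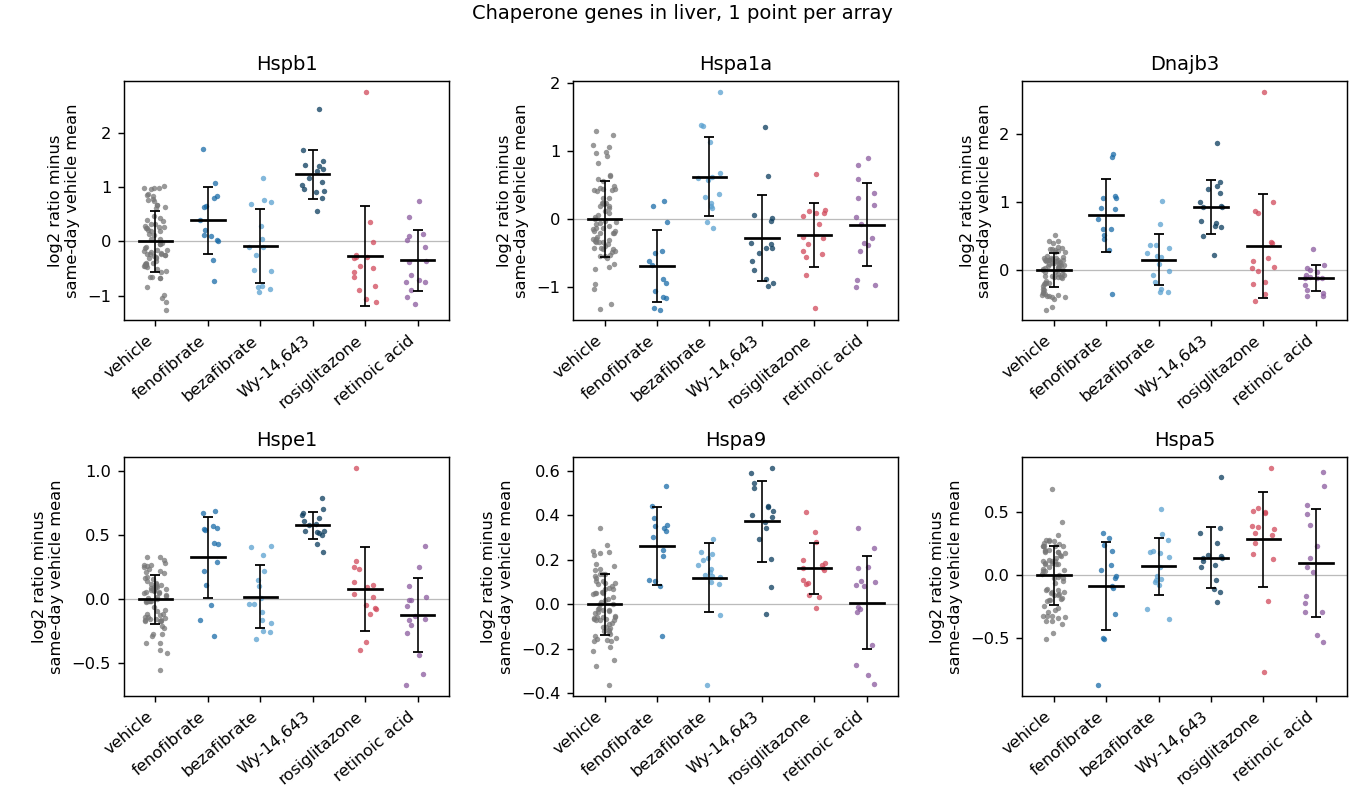
Log2 ratio minus the same-day vehicle mean of 6 chaperone genes in liver, with 1 point per array and 1 column per compound; lines are means and whiskers 1 SD. Hspe1 with Wy-14,643 (0.37 to 0.79) does not overlap vehicle (-0.55 to 0.33), and Hspa1a is low with fenofibrate and high with bezafibrate.

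Of the heat-inducible chaperones of the cytosol, Hspb1 rose with Wy-14,643, while Hspa1a fell with fenofibrate and rose with bezafibrate. Hspb1, the small heat shock protein HSP27, ran from 0.55 to 2.44 with a median of 1.18 with Wy-14,643 against -1.26 to 1.02 in vehicle livers. 10 of 15 treated livers exceeded every vehicle liver, and the difference of 1.24 (SE 0.16, adjusted p = 2.21e-10), a 2.36-fold level, was the largest of any member in liver. By day it was 1.03, 1.15, 0.97, 1.20 and 1.84. With fenofibrate Hspb1 ran from -0.73 to 1.72 with a median of 0.30 and gave 0.39 (95% interval 0.05 to 0.73, adjusted p = 0.0637), and with bezafibrate, rosiglitazone and retinoic acid it gave -0.09 (adjusted p = 0.777), -0.27 (adjusted p = 0.226) and -0.35 (adjusted p = 0.0978). Hspa1a, the stress-inducible HSP70, ran from -1.33 to 0.27 with a median of -0.78 with fenofibrate and from -0.12 to 1.88 with a median of 0.58 with bezafibrate, against -1.33 to 1.30 in vehicle livers, so all 3 ranges overlap. The 2 compounds gave opposite signs against the same vehicle arrays: -0.64 (SE 0.16, adjusted p = 0.000824) with fenofibrate and 0.63 (SE 0.16, adjusted p = 0.0013) with bezafibrate. By day from 2 to 6 the difference was -0.28, 0.07, -0.76, -1.27 and -0.97 with fenofibrate, with the 3 arrays of day 5 at -1.33, -1.32 and -1.15, and 0.24, 1.28, 0.51, 0.41 and 0.70 with bezafibrate, with those of day 3 at 0.58, 1.39 and 1.88. With Wy-14,643 it gave -0.28 (95% interval -0.59 to 0.03, adjusted p = 0.149).

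The constitutive members of these families gave smaller values. Hspa8, the constitutive cytosolic HSP70, fell with fenofibrate to -0.23 (SE 0.083, adjusted p = 0.0222) and was not estimable with Wy-14,643 or rosiglitazone because some days held no value. Hsp90ab1, the constitutive HSP90, was -0.06 (95% interval -0.13 to 0.02, adjusted p = 0.275) with fenofibrate and -0.01 (95% interval -0.08 to 0.07, adjusted p = 0.927) with Wy-14,643, and Hsp90aa1, the inducible form, was -0.18 (95% interval -0.39 to 0.03, adjusted p = 0.176) and 0.21 (95% interval 0.02 to 0.41, adjusted p = 0.0785). Hsph1, an HSP110 exchange factor, gave -0.16, 0.16 and 0.14 with fenofibrate, bezafibrate and Wy-14,643, with adjusted p from 0.149 to 0.182. Hspa4, another HSP110 protein, fell by 0.21 with bezafibrate and 0.18 with retinoic acid. Dnajb1, the DnaJ partner that rises with HSP70 in heat shock, fell with fenofibrate to -0.15 (SE 0.044, adjusted p = 0.00541), and gave -0.09 with Wy-14,643 and 0.08 with bezafibrate, neither of which passed. Hspb8, a small heat shock protein of selective autophagy, rose by 0.17 (adjusted p = 0.0493) with rosiglitazone, where its highest array stood at 1.45 and the median at 0.11, and it gave 0.07 (adjusted p = 0.447) without the array of rat 1376. Hsf1, the heat shock factor, rose by 0.19 with bezafibrate and 0.14 with Wy-14,643.

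Both main chaperones of the endoplasmic reticulum rose with rosiglitazone, while Hspa5 gave -0.10 (95% interval -0.25 to 0.06, adjusted p = 0.345) with fenofibrate and 0.07 (95% interval -0.08 to 0.22, adjusted p = 0.567) with bezafibrate. Hspa5, the lumenal HSP70 known as BiP, ran from -0.77 to 0.85 with a median of 0.37 over 15 rosiglitazone livers against -0.51 to 0.68, with 13 of 15 arrays above 0, and rose by 0.28 (SE 0.075, adjusted p = 0.00367). Hsp90b1, the lumenal HSP90, ran from -1.31 to 0.95 with a median of 0.42 against -0.57 to 0.58, with 14 of 15 above 0, and rose by 0.34 (SE 0.091, adjusted p = 0.00444). The lowest value of both belongs to the liver array of rat 1376, which stood apart by its spread. Without it the rises were 0.36 for Hspa5 and 0.44 for Hsp90b1. These are 2 of the 3 chaperone promoters that hold the stress element, and Dnajc3, the other one, gave -0.06 (95% interval -0.15 to 0.02, adjusted p = 0.298). Of 18 other endoplasmic reticulum folding genes, 3 rose and 3 fell with rosiglitazone, 1 rose and 7 fell with fenofibrate (Xbp1 -0.45, Manf 0.36), and 1 rose and 3 fell with Wy-14,643 (Manf 0.62). Hsp90b1 also rose with Wy-14,643, by 0.23, while Dnajb11, a lumenal DnaJ partner of Hspa5, fell by 0.21 with fenofibrate. Dnajb9, a DnaJ protein that rises in endoplasmic reticulum stress, rose with bezafibrate by 0.37 (SE 0.073, adjusted p = 3.11e-05).

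Several DnaJ genes outside these groups changed in liver, with Dnajb3 by the most. Dnajb3, a DnaJ gene known mainly from testis, ran from 0.23 to 1.86 with a median of 0.93 with Wy-14,643 and from -0.35 to 1.71 with a median of 0.82 with fenofibrate, against -0.58 to 0.52. Most treated livers lay above the vehicle range, and it rose by 0.93 (SE 0.093, adjusted p = 1.02e-15) and 0.82 (SE 0.097, adjusted p = 3.31e-12); bezafibrate gave 0.16 (95% interval -0.03 to 0.34, adjusted p = 0.249). With rosiglitazone it rose by 0.35, and by 0.22 (adjusted p = 0.062) without the array of rat 1376. Dnajc12, which works with amino acid hydroxylases, ran from -1.66 to 1.07 with a median of 0.90 with retinoic acid, from -0.96 to 1.11 with a median of 0.71 with rosiglitazone and from -1.20 to 0.12 with a median of -0.54 with fenofibrate, against -1.34 to 0.89. It rose by 0.51 (SE 0.16, adjusted p = 0.0113) and 0.50 (SE 0.16, adjusted p = 0.0193) and fell to -0.48 (SE 0.17, adjusted p = 0.0182), and its difference by day with retinoic acid was 0.10, 0.08, 0.47, 0.93 and 0.96. Dnajc21, which acts in ribosome biogenesis, rose with bezafibrate by 0.39 (SE 0.071, adjusted p = 6.24e-06), with 15 of 15 arrays above 0, and by 0.34, 0.28 and 0.18 with Wy-14,643, fenofibrate and retinoic acid. Dnaja4 fell by 0.33 with fenofibrate and 0.22 with Wy-14,643.

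With retinoic acid in liver the shares of chaperones that fell and rose were near the 15.0% and 14.2% of all features. The falls held 2 of the 4 DnaJ genes of the A class. Dnaja1, a main cytosolic partner of HSP70, ran from -0.62 to 0.10 with a median of -0.19 against -0.35 to 0.22, with 14 of 15 arrays below 0, and fell to -0.24 (SE 0.057, adjusted p = 0.000433). Dnaja3, a mitochondrial member, fell to -0.29 (SE 0.056, adjusted p = 1.2e-05). Hspa13, an HSP70 relative of microsomes, rose by 0.33, Hspa14 by 0.19 and Dnajc30, a mitochondrial member, by 0.23, while Dnajc28 fell by 0.26 and Dnajc8, a splicing-associated member, by 0.13. With rosiglitazone Hspb3, a small heat shock protein of muscle, was called at 0.46 and Dnajc22 at -0.36, but single arrays at 5.03 and -4.01 carried these values. Both are from the array of rat 1376; without it the differences were 0.14 (adjusted p = 0.0201) and -0.10 (adjusted p = 0.0577). This is the array with hepatocyte markers at -4.07. Its skeletal muscle fibre markers stood 1.39 log2 units above the median of the other livers of its day, and its slow fibre, fibroblast and endothelial markers were the high ones given above. Of 8 skeletal muscle fibre markers, 4 were called higher in the rosiglitazone livers. The part of these markers in the result was not tested. The remaining rosiglitazone falls were Dnajc16 at -0.19, Dnajb12 at -0.13 and Hspbp1, an exchange factor of HSP70, at -0.08.

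**Figure D5:**
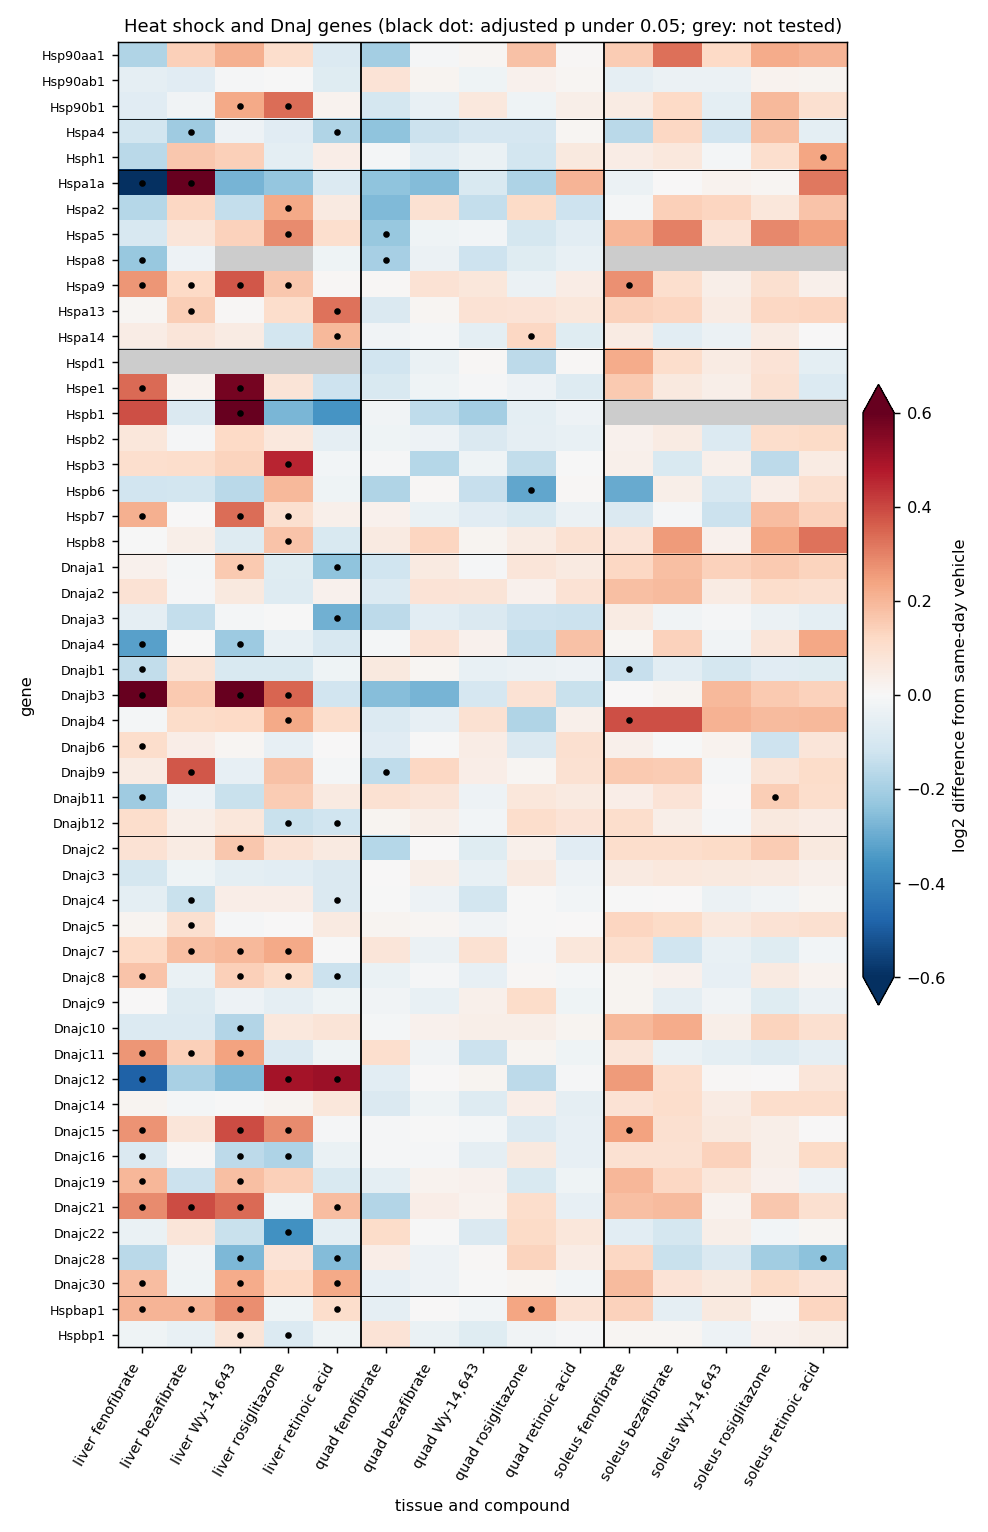
Log2 difference from same-day vehicle of the 51 heat shock and DnaJ genes (one line each, grouped by family) in the 15 combinations of tissue and compound. Black dots mark adjusted p under 0.05 and grey marks genes not tested; 17 rises and 4 falls with Wy-14,643 in liver stand beside 0 calls with Wy-14,643 in either muscle.

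In muscle few chaperones passed, and part of those rested on arrays in doubt. In soleus fenofibrate raised 3 of 49 genes and lowered 1, the percentage for all features being that given above: Hspa9 ran from -0.14 to 0.58 with a median of 0.26 against -0.58 to 0.26, with 18 of 19 arrays above 0 and 9 of 19 above every vehicle soleus, and rose by 0.28 (SE 0.051, adjusted p = 0.000166). Dnajc15 rose by 0.24, Dnajb4 rose by 0.39, from values of -0.27 to 0.96 against -2.61 to 0.67, and Dnajb1 fell by 0.14. In quad fenofibrate lowered 3 of 51 (5.88%) and raised 0, a share near the 5.69% of all features called: Hspa5 at -0.23, Hspa8 at -0.20 and Dnajb9 at -0.15. Without the quad arrays in doubt these were -0.09 (adjusted p = 0.27), -0.09 (0.31) and -0.08 (0.25), so none of the 3 passed by limma. Rosiglitazone in quad raised Hspbap1 (0.24), an HSPB1-associated protein gene, and Hspa14 (0.12) and lowered Hspb6 (-0.31, adjusted p = 0.0325), the muscle small heat shock protein HSP20, so that 5.88% of chaperones were called beside 6.86% of all features. Hspb6 ran from -0.97 to 0.33 with a median of -0.27 against -1.04 to 0.53. In soleus rosiglitazone raised Dnajb11 (0.15), and retinoic acid raised Hsph1 (0.24) and lowered Dnajc28 (-0.24). The soleus calls named here passed also without the 3 soleus arrays in doubt, with Dnajb4 at 0.32 and Hspa9 at 0.28. By limma 0 chaperones passed with bezafibrate in quad (6 at an unadjusted p under 0.05) or soleus (7), with Wy-14,643 in quad (7) or soleus (1), or with retinoic acid in quad (2).

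Whether an effect differed between tissues was tested as the difference itself, in a fit over the 3 tissues. Liver minus the mean of both muscles was called for 21 of 40 proteasome and 14 of 48 chaperone genes with Wy-14,643, beside 26.5% of all features. Without the arrays in doubt it was called for 28 and 18, beside 6044 of 18201 features. With all arrays the difference was 0.43 (SE 0.065, adjusted p = 3.91e-09) for Psmg2, 0.56 (SE 0.082, adjusted p = 1.08e-09) for Hspe1, 0.88 (SE 0.13, adjusted p = 1.04e-09) for Dnajb3 and -0.38 (SE 0.091, adjusted p = 0.000384) for Psmb8. With fenofibrate 4 of 40 proteasome and 9 of 48 chaperone genes were called, beside 19.4% of all features, so neither share was above that of all features. Without the arrays in doubt 10 and 14 were called, beside 5053 of 18207 features, again shares near that of all features. With all arrays Psmg2 was at 0.28 (SE 0.065, adjusted p = 0.000354), Psmb3 at 0.26 (SE 0.057, adjusted p = 0.000107) and Dnajc12 at -0.58 (SE 0.16, adjusted p = 0.00252). With retinoic acid 4 and 7 were called (16.9%), with Psmb9 at 0.72 (SE 0.12, adjusted p = 3.46e-07) and Psmb8 at 0.47 (SE 0.090, adjusted p = 7.38e-06), so both inducible subunits rose more in liver. With rosiglitazone 1 and 8 (13.5%) and with bezafibrate 3 and 6 (9.78%) were called, Hspa1a with bezafibrate at 0.76 (SE 0.19, adjusted p = 0.00185). Soleus minus quad was called for 5 proteasome and 11 chaperone genes with fenofibrate, beside 14.1% of all features, but for 0 and 1 without the arrays in doubt. The 1 left was Hspa9, at 0.24 (adjusted p = 0.0185). By limma 0 members were called for soleus minus quad with bezafibrate (0 proteasome and 6 chaperone genes at an unadjusted p under 0.05; 0.0824% of all features), Wy-14,643 (4 and 3; 0%), rosiglitazone (1 and 10; 0.0934%) or retinoic acid (7 and 8; 0.159%).

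A linear trend over days 2 to 6 was called for members in 2 of 15 comparisons. With retinoic acid in liver the differences of 4 of the 42 proteasome genes climbed, a share near the 9.38% of all features called. These were Psmd12 by 0.15 per day (adjusted p = 0.00987), Psma4 by 0.15, Psmd5 by 0.13 and Psmd6 by 0.11 log2 units. For Psmd12 the difference from day 2 to day 6 was -0.55, 0.28, -0.06, 0.12 and 0.27, with the 3 arrays of day 2 at -0.88, -0.51 and -0.26, so the trend starts from low values on day 2 rather than from a steady climb. The median over the 42 proteasome genes was -0.28 on day 2, with 6 genes above 0, and 0.25 on day 3, with 40 above 0. Leaving out the arrays in doubt, 8 proteasome and 3 chaperone trends were called, beside 2346 features in place of 1726. With fenofibrate in quad, beside 1.55% of all features, 5 proteasome and 2 chaperone genes had falling trends (Psma6, Psmb1, Psmc3, Psmd7, Psme3ip1, Dnajc8 and Hsp90b1), but 0 of them, and 0 features in all, were called without the arrays in doubt, one of which is the day 6 fenofibrate array of rat 1157. In the other 13 comparisons 0 of 1177 member trends passed by limma, with 64 at an unadjusted p under 0.05; the percentages of all features called were 0.446 for fenofibrate, 0.0598 for bezafibrate, 0.158 for Wy-14,643 and 0.196 for rosiglitazone in liver and 0% for the rest.

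In the EDL the ratio to the vehicle pool could be tested only against 0, so that the spread of vehicle rats is not in the test and a difference between the dyes or in the pool enters every value. Between 13 and 18 proteasome and between 22 and 28 chaperone genes then passed for each compound, beside 40.4% of all features with retinoic acid, 47.1% with Wy-14,643, 34.6% with fenofibrate, 33.9% with bezafibrate and 37.2% with rosiglitazone at 10 mkd, against which the members are read. Dnajc7, a DnaJ protein of HSP90 clients, was above 0 on all 54 EDL arrays, and Psmd2 and Hspb6 were below 0 on average with each compound: Psmd2 from -0.24 with rosiglitazone to -0.52 with fenofibrate, and Hspb6 from -0.43 with bezafibrate to -0.81 with fenofibrate. Against the mean of the other compounds of the same days, 0 members passed by limma for any compound, with between 1 and 8 proteasome and between 2 and 8 chaperone genes at an unadjusted p under 0.05. Rosiglitazone at 100 against 10 mkd on day 4, a comparison of 4 with 3 arrays, gave 0 calls among members (2 proteasome and 0 chaperone genes at an unadjusted p under 0.05) beside 0.0108% of all features by limma. Psmb9 was 0.26 and Hspb6 -0.31 there, with adjusted p = 0.999 for each. With bezafibrate Hspb1 ran from -0.41 to 2.03 with a median of -0.11 and Hspa1a from -0.15 to 2.45 with a median of 0.03, and with fenofibrate they ran from -0.56 to 1.09 and from -0.16 to 0.82. With retinoic acid Hspa1a ran from -0.23 to 3.55 with a median of 0.07. Hspa5 ran from 0.0066 to 0.38 with fenofibrate.

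Over the 15 comparisons of liver, quad and soleus, the members called in 4 or more were Psma5 (6), Psmd11, Psmd12, Hspa9 and Hspbap1 (5 each), and Psma4, Psmc2, Psmd7, Dnajc15 and Dnajc21 (4 each), all higher in each, and Psmb8 (2 higher and 2 lower) and Dnajc8 (3 higher and 1 lower), which changed in both directions. Since compounds of a tissue share vehicle arrays, these counts are not independent. Psmd11, a cap subunit known to raise proteasome assembly in stem cells, was 0.16, 0.16 and 0.14 in liver with fenofibrate, Wy-14,643 and rosiglitazone, 0.19 in quad with rosiglitazone and 0.25 in soleus with retinoic acid. Psma5 was 0.19, 0.31, 0.22 and 0.17 in liver with fenofibrate, Wy-14,643, rosiglitazone and retinoic acid, and 0.23 and 0.24 in quad and soleus with rosiglitazone. The members called in no comparison were Psmb6, Psmc6, Psmd3, Psmd9, Psmd10, Dnaja2, Dnajc3, Dnajc9, Dnajc14, Hsp90aa1, Hsp90ab1, Hspb2 and, where tested, Hspd1. In the 71 calls of members read by more than 1 probe, the probes had opposite signs in 0, but a call on the mean of the probes favours such agreement. Sizes differed between probes, as for Psmd11 in liver with Wy-14,643, from 0.04 to 0.30 over 4 probes. With 1 probe per gene 25 of 197 calls did not pass.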

How the data were processed

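The members and the gene lists were chosen with earlier results of these data known. The deposited values were log ratios, 1 column per array and 484 in all, each with Cy5-labelled RNA of 1 rat against a Cy3-labelled vehicle pool of the same tissue and day, per the labels; the pools held 10 to 16 rats, the labels do not say whether the single vehicle rats were also in a pool, and no dyes were swapped, so a dye effect is shared by every array. That these are log10 values of Cy5 over Cy3, as the authors deposited them, was inferred: they stop at -2 and 2, centre on 0, and PPARA target genes are higher in liver with PPARA ligands. The image processing and normalization are not given in the sources used here. Of all values 0.907% were missing and 699 lay at the limits. Values were multiplied by 3.32 to give log2.

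Of 23653 probes, 15260 named 1 gene in the platform annotation, 17 several and 8376 none; probes of a gene were averaged, giving 18603 features, and a feature needed values on at least 80% of a tissue's arrays. With limma 3.58.1 in R 4.3.3, a mean per tissue, compound, dose and day was fitted, and each compound was compared with same-day single vehicle arrays, days weighted equally, two-sided, with Benjamini-Hochberg adjustment over all features and a threshold of 0.05. The number of arrays limits the precision. Tissue differences came from a fit over 3 tissues; trends from the slope over days. The same rat gave more than 1 tissue in 162 of 180 rats, per the rat numbers in the labels; as a block it had a consensus correlation of 0.048, and the fit with the rat as a replicate block called 5 proteasome and 13 chaperone genes for soleus minus quad with fenofibrate, against 5 and 11 without it. The quad rosiglitazone arrays of day 3 are numbered 1 to 4, numbers that occur in no other tissue. They count in the block as rats of 1 tissue. The fit was tested on simulated data first. Named genes were the members that passed, up to the 5 largest rises and falls of each set and comparison, members passing in 4 or more of 15 comparisons, and a fixed list; other members were named after their values were seen. Alternatives were another centring, scaling or weighting of arrays, 1 probe per gene, ratios against the pool alone, leaving out each day in turn, leaving out the arrays in doubt (together and one at a time) and the liver array of rat 1380, and, for the dose comparison in the EDL, each day 4 rosiglitazone array in turn.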

Additional observations from a re-analysis of the deposited data

Results flagged for a closer look

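Effects of a compound that differed between tissues are given here as liver minus the mean of both muscles, or soleus minus quad, in log2 units, with the test of that difference by limma. With fenofibrate Dnajb3 differed by 0.95, Dnajc12 by -0.58, Psmg2 by 0.28 and Psmb3 by 0.26 between liver and the muscles. With bezafibrate Hspa1a differed by 0.76, Dnajc21 by 0.28, Psmc6 by -0.28 and Psmg1 by -0.20. With Wy-14,643 Dnajb3 differed by 0.88, Hspe1 by 0.56, Psmg2 by 0.43 and Psmb8 by -0.38. With rosiglitazone Hspb3 differed by 0.61, Dnajc12 by 0.58 and Psmf1 by -0.21; the Hspb3 value rests on the liver array of rat 1376, as described above. With retinoic acid Dnajc12 differed by 0.48, Dnaja1 by -0.33, Psmb9 by 0.72 and Psmb8 by 0.47. Between soleus and quad with fenofibrate Dnajb4 differed by 0.47 (adjusted p = 0.0118), Hspa5 by 0.43 (adjusted p = 0.0205), Psma6 by 0.29 (adjusted p = 0.0397) and Psma4 by 0.29 (adjusted p = 0.0152), and without the arrays in doubt these 4 were not called.

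In the EDL, 36 groups of values were looked at for a rat far from the others of its group, and 6 were found. These 36 were only part of the EDL groups and members. The largest EDL groups were left out, that of retinoic acid among them, so its high Hspa1a value given above was not tested in this way. How many such rats chance would give among the 36 is not known. A group pools days with different vehicle pools, and genes of 1 rat may move together. With bezafibrate 1 rat stood at 0.70 for Hspb6 and 1 at 2.03 for Hspb1. With fenofibrate 1 rat stood at -2.04 for Hspb6, at 1.09 for Hspb1, at 0.82 for Hspa1a and at 0.38 for Hspa5, each the value of the rat farthest from the rest for that gene.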

How the results depend on the processing

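Of 197 calls of members against vehicle, 85 passed under every alternative run for them and 0 changed sign. Of 1034 alternative values of counts and set medians, 891 stayed within the limits set for them. Values within those limits could still differ from the values reported, so the 891 are no measure of how firm the results are. Counts below are members called, as the value reported, then the alternative. The number of all features called changed with the settings too. In quad with rosiglitazone it went from 1263 to 4139 with array quality weights and to 2280 without the arrays in doubt. In liver with fenofibrate it went from 6814 to 5371 with arrays scaled to one spread. With rosiglitazone in liver it went from 4162 to 387 with array quality weights. With arrays scaled to one spread, proteasome calls went from 30 to 14 in liver with fenofibrate, from 2 to 1 in quad with fenofibrate, and from 1 to 4 in soleus with fenofibrate and with retinoic acid. Chaperone calls went from 13 to 7 in liver with retinoic acid, 3 to 0 in quad with fenofibrate, 0 to 1 in quad and in soleus with bezafibrate, 4 to 7 in soleus with fenofibrate and 1 to 2 in soleus with rosiglitazone. With array quality weights, proteasome calls went from 10 to 0 in liver with rosiglitazone, 7 to 12 with bezafibrate and 5 to 10 with retinoic acid, 13 to 24 in quad with rosiglitazone, and 1 to 2 and 1 to 4 in soleus with fenofibrate and retinoic acid. Chaperone calls went from 21 to 32 in liver with Wy-14,643, 17 to 4 with rosiglitazone, 3 to 0 in quad with fenofibrate, 0 to 2 with bezafibrate and 3 to 12 with rosiglitazone, 4 to 8 in soleus with fenofibrate and 0 to 1 with bezafibrate, where the chaperone median went from 0.0824 to 0.0143. With 1 probe per gene, proteasome calls went from 7 to 4 in liver with bezafibrate and 1 to 0 in soleus with fenofibrate and with retinoic acid, and chaperone calls in soleus from 4 to 2 with fenofibrate and 2 to 1 with retinoic acid. With ratios tested against the pool alone, proteasome calls went from 2 to 4 in quad with fenofibrate, 0 to 1 with bezafibrate, 2 to 4 in soleus with rosiglitazone and 1 to 2 with retinoic acid; chaperone calls went from 3 to 12, 0 to 3 and 3 to 8 in quad with fenofibrate, bezafibrate and rosiglitazone, and 0 to 1 and 1 to 3 in soleus with bezafibrate and rosiglitazone. With array medians subtracted, chaperone calls in quad with fenofibrate went from 3 to 5. The cause of these changes was not tested.

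Without the 8 arrays in doubt, proteasome calls went from 13 to 20 in quad with rosiglitazone, 2 to 1 with fenofibrate, and 1 to 2 in soleus with fenofibrate and with retinoic acid; chaperone calls went from 3 to 7 and 3 to 1 in quad with rosiglitazone and fenofibrate, 0 to 1 in quad and soleus with bezafibrate and 4 to 8 in soleus with fenofibrate. For soleus minus quad they went from 5 to 0 and 11 to 1 with fenofibrate (proteasome, chaperone), and from 0 to 1 chaperone with bezafibrate and with rosiglitazone. For liver minus muscles they went from 4 to 10 and 9 to 14 with fenofibrate, 3 to 5 proteasome with bezafibrate and 1 to 2 with rosiglitazone. All features called there went from 3532 to 5053, 1781 to 2761 and 2462 to 2807 with these compounds. Trends, an alternative chosen after seeing the data, went from 5 to 0 and 2 to 0 in quad with fenofibrate and from 4 to 8 and 0 to 3 in liver with retinoic acid. All features with a called trend went from 286 to 0 and from 1726 to 2346 in these comparisons. With the rat as a replicate block and the same arrays left out, the counts were 0 and 1 for soleus minus quad with fenofibrate, 10 and 16 for liver minus muscles with fenofibrate, 6 and 10 with bezafibrate, 2 proteasome with rosiglitazone, and 1 chaperone for soleus minus quad with bezafibrate and with rosiglitazone; the block alone changed no count by over 1.5 times. Against the other compounds of the day, the EDL counts of 17, 17, 18, 13 and 14 proteasome and 25, 28, 23, 22 and 24 chaperone genes (retinoic acid, Wy-14,643, fenofibrate, bezafibrate, rosiglitazone) each went to 0. Without the liver arrays of rat 1380, or of rats 1376 and 1380, chosen after seeing the data, rosiglitazone proteasome calls were 6 in place of 10. All features called were then 3178 and 2728 in place of 4162.

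Leaving out each day in turn, each array in doubt in turn, or the liver array of rat 1380, proteasome calls ranged from 16 to 30 in liver with fenofibrate, 3 to 8 with bezafibrate, 5 to 12 with rosiglitazone and 4 to 11 with retinoic acid; from 1 to 4 in quad with fenofibrate, 0 to 1 with bezafibrate and with retinoic acid, and 3 to 20 with rosiglitazone; and in soleus from 0 to 3 with fenofibrate, 1 to 3 with rosiglitazone and 0 to 2 with retinoic acid. Chaperone calls ranged from 7 to 13 in liver with bezafibrate, 11 to 21 with rosiglitazone and 8 to 14 with retinoic acid; from 0 to 7 in quad with fenofibrate and 0 to 5 with rosiglitazone; and in soleus from 1 to 7 with fenofibrate, 0 to 1 with bezafibrate, 0 to 2 with rosiglitazone and 0 to 4 with retinoic acid.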
